A study of Arabidopsis thaliana with 4 samples.

Results

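A group of 10 genes of oxygen sensing was examined among the 27322 gene models measured by mRNA sequencing in Arabidopsis inflorescence apices. They are the group VII ethylene response factor (ERF) genes RAP2.2, RAP2.3, RAP2.12, HRE1 and HRE2, the plant cysteine oxidase genes PCO1 and PCO2, the transcription factor genes LBD41 and HRA1, and the ubiquitin ligase gene PRT6. They were chosen by locus, with earlier results of the same comparison known, so their differences between genotypes are given as a description with no test. All 10 were measured, and all 10 had more than 6 reads in at least 1 genotype. The mutant group carries mp319 and clv3-7, lesions in the auxin response factor gene MP and in the stem cell peptide gene CLV3, and is called mp clv3. The other group is the wild type Col-0 (WT). Both are shoot apices of 6-week plants from a greenhouse at 22°C with 16 h of light and 8 h of dark, and the labels name no low-oxygen treatment. Single mp and clv3 mutants were not analysed here, so the parts of the 2 mutations cannot be told apart.

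The labels give 2 biological replicates per genotype, but the authors deposited a single column of read numbers for each genotype and a single column of RPKM, which divides reads by gene length and sequencing depth. No difference therefore has a replicate check. Ratios are mp clv3 over WT, from reads divided by the genotype's total (103347441 in mp clv3 and 101878433 in WT). The 95% interval in parentheses after a ratio is exact and covers counting error only. Counts of genes refer to differences of at least 2-fold among the 23060 models with more than 6 reads in either genotype. Of those models, 11.5% were at least 2-fold higher and 23.8% at least 2-fold lower.

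Plant cells sense oxygen through the stability of proteins that begin with methionine and cysteine. After the methionine is removed, plant cysteine oxidases use molecular oxygen to oxidise the exposed cysteine, arginyl transferases add an arginine to it, and the ubiquitin ligase PRT6 marks the protein for degradation. Group VII ERFs are substrates of this route: when oxygen is scarce they persist, enter the nucleus and switch on genes of fermentation and sugar use together with genes that feed back on the response. The shoot meristem of Arabidopsis is known as a tissue low in oxygen, in which the small protein ZPR2 is a further substrate.

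The coding starts of the 5 group VII ERF genes are shown because the second codon carries the oxygen-sensitive cysteine. Each line gives the first 30 coding bases, 5′ to 3′ in the direction of the gene, from the RefSeq annotation of TAIR10.1, with the second codon in capitals.
RAP2.2 (chr3:4738971-4739000, minus strand): atgTGTggaggagctataatctccgatttc
RAP2.3 (chr3:5705784-5705813, plus strand): atgTGTggcggtgctattatttccgattat
RAP2.12 (chr1:20135242-20135271, plus strand): atgTGTggaggagctataatatccgatttc
HRE1 (chr1:27241904-27241933, plus strand): atgTGCggaggagctgtaatttccgattac
HRE2 (chr2:19503461-19503490, minus strand): atgTGTgggggagctatcatttctgatttc
PCO2 (chr5:15974543-15974572, plus strand), a sensor and not a substrate: atgGGAactgatacagttatgtctggacga

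In all 5 ERF genes the second codon is TGT or TGC, the codons of cysteine. HRE1 has it in 2 of its 3 annotated coding transcripts, and the other 4 genes in every one. None of the other 5 genes has a cysteine codon at that place. Of the 26630 coding genes in the table, 274 have such a start in at least 1 transcript (1.03%). The 222 of them that are not among the 10 genes and had more than 6 reads in either genotype were past 2-fold higher in 15.8% of cases and past 2-fold lower in 20.7%. The shares over all models above 6 reads were 11.5% and 23.8%. The median log2 ratio of the 222 was -0.06, against -0.15 over all models above 6 reads.

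A threshold of 2-fold was used to divide the 10 genes. RAP2.3, HRE2, PCO1, PCO2, LBD41 and HRA1, 6 in number, were at least 2-fold higher in mp clv3, 5 of them at least 4-fold and 4 at least 16-fold. RAP2.2, RAP2.12, HRE1 and PRT6 differed by less than 2-fold, and none was at least 2-fold lower. Over all models, 5.82% were at least 4-fold and 1.83% at least 16-fold higher. The count of 6 comes from the contrast on which the genes were chosen, so nothing is read from it against that background. Together the 10 genes held 309593 reads in mp clv3, 0.300% of the total, and 75200 reads in WT, 0.0738%. The transcripts were taken from whole apices, so more cells with a transcript and more transcript per cell cannot be told apart for these genes.

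**Figure D1:**
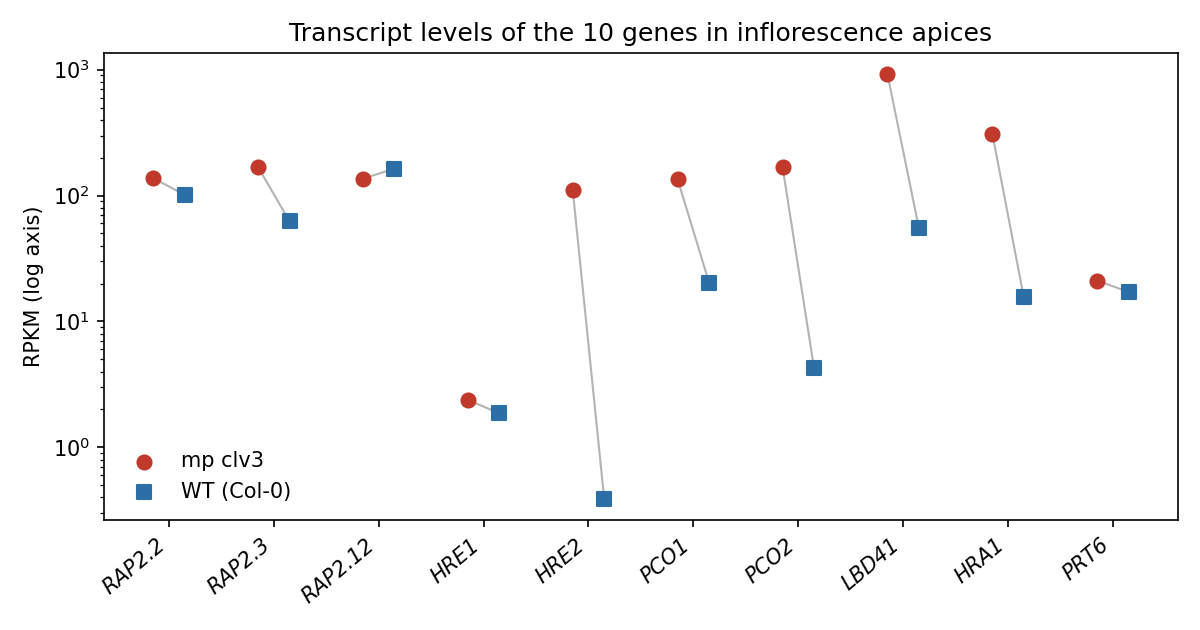
RPKM (log axis) of the 10 genes in mp clv3 (red circles) and WT (blue squares), with 1 deposited value per genotype and so no error bars; grey lines join the values of a gene. HRE2 spans the widest range, at 110 RPKM in mp clv3, against 0.387 RPKM in WT, while RAP2.12 is the gene whose mp clv3 value lies below its WT value.

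Among the 3 RAP-type ERF genes, which are known to be transcribed in ample oxygen and whose proteins start the low-oxygen response, RAP2.3 was at least 2-fold higher in mp clv3 and the other 2 were not. RAP2.12 (AT1G53910; chromosome 1, 20134844 to 20137013, 3 exons) had 22483 reads or 136 RPKM in mp clv3, against 26588 reads or 164 RPKM in WT, 1.20-fold lower in mp clv3 (1.17 to 1.23). It was the member with the lower value in mp clv3. RAP2.2 (AT3G14230; chromosome 3, 4737120 to 4739298, 3 exons) had 23397 reads or 138 RPKM in mp clv3, against 16949 reads or 101 RPKM in WT, a ratio of 1.36 (1.32 to 1.40). RAP2.3 (AT3G16770, also called EBP or ERF72; chromosome 3, 5705541 to 5707084, 2 exons) had 19584 reads or 169 RPKM in mp clv3, against 7154 reads or 62.5 RPKM in WT, a ratio of 2.70 (2.60 to 2.80).

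In both genotypes these 3 genes were strongly expressed. Each had a higher RPKM than 96.9% to 97.6% of all models in mp clv3 and than 91.9% to 97.2% in WT. The order of their levels differed between genotypes. In mp clv3 RAP2.3 was the highest, and RAP2.2 and RAP2.12 lay within 1.01-fold of each other. In WT RAP2.12 was the highest, at 2.62 times the RPKM of RAP2.3 and 1.62 times that of RAP2.2. Summed over the 3 genes, the level was 443 RPKM in mp clv3, against 327 RPKM in WT, a ratio of 1.35.

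The 2 ERF genes known to be induced by low oxygen, HRE1 and HRE2, differed from each other. HRE2 (AT2G47520, also ERF71; chromosome 2, 19502776 to 19503702, 2 exons) had 7785 reads or 110 RPKM in mp clv3, against 27 reads or 0.387 RPKM in WT. The ratio was 284 (163 to 502), and 35 of the 23060 models above 6 reads had a larger one when 0 reads were taken as 6. Its level exceeded that of 95.9% of models in mp clv3 and 25.7% in WT. HRE1 (AT1G72360, also ERF73; chromosome 1, 27241696 to 27242968, 2 exons) was low in both genotypes, with 250 reads or 2.38 RPKM in mp clv3, against 193 reads or 1.86 RPKM in WT.

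The HRE1 ratio of 1.28 had an interval of 0.967 to 1.67, so a difference was not detectable at this depth by counting error alone. The authors' deposited table gives HRE1 an FDR of 0.0127, from a test that is not stated. HRE2 was 46.3 times HRE1 in mp clv3, while in WT HRE1 was 4.81 times HRE2, both as ratios of RPKM. The annotated span of HRE1 shares 124 bases with AT1G72370 on the opposite strand, which had 76483 reads in mp clv3, against 92073 in WT. The libraries were strand-specific, but whether counting used the strand is not stated in the labels or the table, so whether the HRE1 number holds reads of that neighbour is not known.

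The make-up of the group VII ERF transcripts differed between the genotypes. Their summed level was 555 RPKM in mp clv3, against 329 RPKM in WT. HRE2 made up 19.8% of it in mp clv3 and 0.118% in WT. RAP2.3 made up 30.4% in mp clv3 and 19.0% in WT. RAP2.12 made up 24.6% in mp clv3 and 49.6% in WT, and RAP2.2 24.8% in mp clv3 and 30.7% in WT. HRE1 stayed under 1% in both, at 0.429% in mp clv3 and 0.566% in WT.

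**Figure D2:**
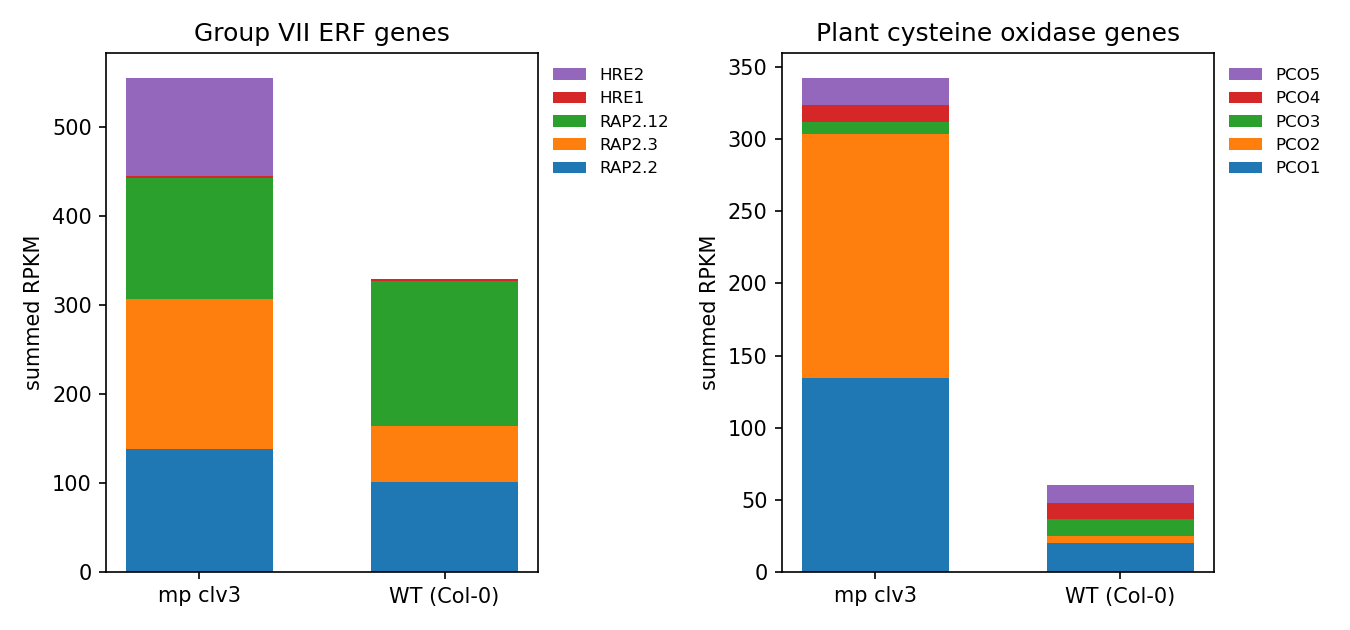
Summed RPKM of the 5 group VII ERF genes (left) and of the 5 plant cysteine oxidase genes (right) in mp clv3 and WT, stacked by gene from 1 deposited value per genotype. The HRE2 segment is visible in mp clv3 only, at 110 RPKM, and PCO1 with PCO2 make up most of the oxidase bar in mp clv3, at 303 of 343 RPKM.

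PCO1 and PCO2 encode the plant cysteine oxidases known to be induced by low oxygen, and both were higher in mp clv3. PCO2 (AT5G39890; chromosome 5, 15974270 to 15976270, 5 exons) had 21614 reads or 169 RPKM in mp clv3, against 538 reads or 4.27 RPKM in WT, a ratio of 39.6 (35.1 to 44.9). PCO1 (AT5G15120; chromosome 5, 4898641 to 4900734, 5 exons) had 16505 reads or 134 RPKM in mp clv3, against 2459 reads or 20.3 RPKM in WT, a ratio of 6.62 (6.23 to 7.03). The intervals of the 2 ratios do not overlap, but they cover counting error only. Whether the 2 ratios differ beyond the spread of replicates was not tested. PCO2 was 1.26 times PCO1 in mp clv3, while in WT PCO1 was 4.76 times PCO2, by RPKM.

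The 3 other oxidase genes, whose transcripts are known to respond less to low oxygen, differed by less than 2-fold. PCO5 was at 19.1 RPKM in mp clv3, against 12.8 RPKM in WT (log2 ratio 0.58, 0.45 to 0.71). PCO4 was at 11.7 RPKM in mp clv3, against 10.8 RPKM in WT (ratio 1.08, 0.984 to 1.20). PCO3 was at 8.51 RPKM in mp clv3, against 12.1 RPKM in WT (ratio 0.704, 0.639 to 0.775). PCO1 and PCO2 together lay above PCO4 and PCO5 in mp clv3 and close to them in WT. The summed level of PCO1 and PCO2 was 303 RPKM in mp clv3, against 24.6 RPKM in WT, a ratio of 12.3, whereas PCO4 and PCO5 summed to 30.8 RPKM in mp clv3, against 23.6 RPKM in WT, a ratio of 1.31. All 5 together reached 343 RPKM in mp clv3, against 60.3 RPKM in WT, and PCO2 made up 49.3% of that in mp clv3 and 7.08% in WT.

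LBD41 and HRA1 encode transcription factors induced by low oxygen. LBD41 belongs to the LOB domain family. HRA1 is a trihelix protein known to bind RAP2.12 and to dampen its activity. LBD41 (AT3G02550; chromosome 3, 536500 to 538126, 2 exons) had 131385 reads or 919.9 RPKM in mp clv3, against 7754 reads or 55.1 RPKM in WT, a ratio of 16.7 (16.2 to 17.3). It was the 37th most abundant of all 27322 models by RPKM in mp clv3 and the 2539th in WT. HRA1 (AT3G10040; chromosome 3, 3096345 to 3098417, 1 exon) had 52943 reads or 309 RPKM in mp clv3, against 2625 reads or 15.5 RPKM in WT, a ratio of 19.9 (18.8 to 21.0). It ranked 319th in mp clv3 and 9318th in WT. The proportion of the 2 genes was similar, with LBD41 at 2.98 times the RPKM of HRA1 in mp clv3 and 3.54 times in WT.

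LBD41 was set beside the other class II LBD genes, a branch of the family that includes repressors of nitrogen-responsive genes. LBD40 had 9627 reads or 97.3 RPKM in mp clv3, against 10 reads or 0.103 RPKM in WT, a ratio of 949 (406 to 2924) that rests on few WT reads. LBD37 was at 6.97 RPKM in mp clv3, against 16.2 RPKM in WT, 2.32-fold lower in mp clv3 (2.11 to 2.56). LBD38 was at 10.7 RPKM in mp clv3, against 16.6 RPKM in WT, and LBD39 at 9.37 RPKM in mp clv3, against 8.61 RPKM in WT. LBD42 was under 0.3 RPKM in both genotypes. Of these 5 genes, 1 was at least 2-fold higher and 1 at least 2-fold lower, against 11.5% and 23.8% of all models above 6 reads. The median log2 ratio was -0.07.

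PRT6, the ubiquitin ligase at the end of the degradation route, differed by less than 2-fold. It (AT5G02310; chromosome 5, 473868 to 482942, 18 exons) had 13647 reads or 21.1 RPKM in mp clv3, against 10913 reads or 17.1 RPKM in WT, a ratio of 1.23 (1.19 to 1.28). Its span shares 150 bases with AT5G02320 on the opposite strand, which had 1582 reads in mp clv3, against 920 in WT. Read in the sense direction, no stretch of 50 bases in the annotated transcripts of any of the 10 genes occurs in a transcript of another gene. The search was for exact matches to annotated transcripts, so matches with mismatches or to sequence outside those transcripts were not covered. Opposite strands were not compared, so the bases that HRE1 and PRT6 share with their neighbours are not covered.

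**Figure D3:**
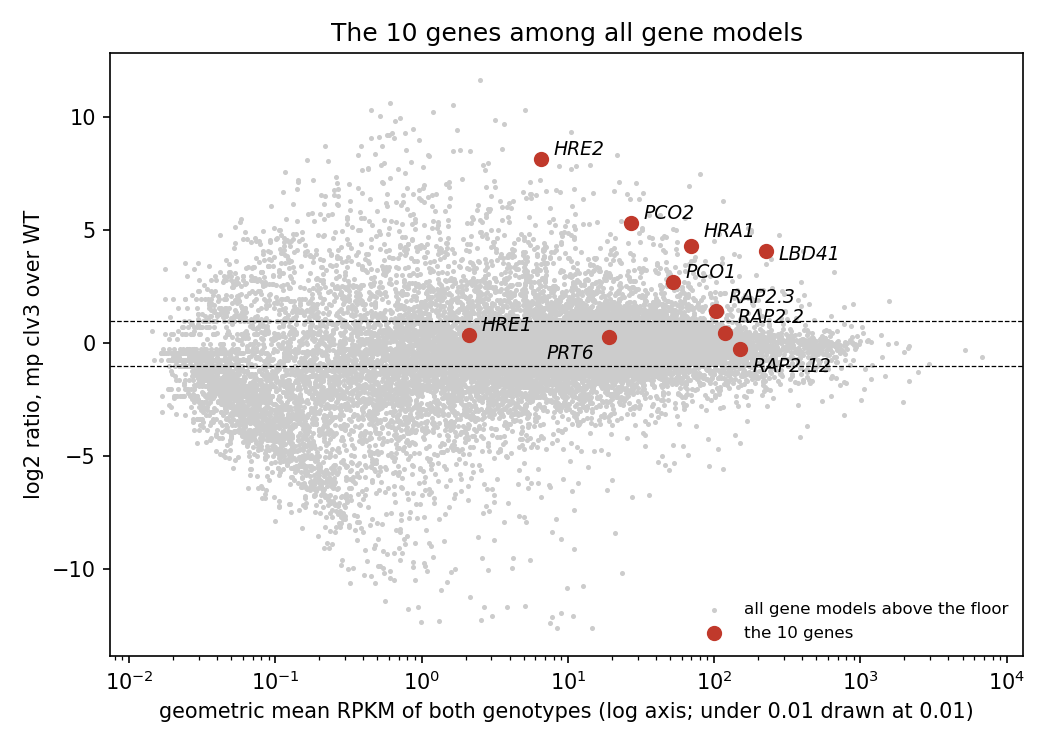
Log2 ratio of mp clv3 over WT against the geometric mean RPKM of both genotypes (log axis) for the 23060 models with more than 6 reads in either genotype (grey) and the 10 genes (red); dashed lines mark 2-fold. HRE2 lies at 8.15 and PCO2, HRA1 and LBD41 at 5.31, 4.31 and 4.06, while RAP2.2, RAP2.12, HRE1 and PRT6 lie between the dashed lines.

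Most other genes of the degradation route also lay within 2-fold, with 2 exceptions. Of 14 further genes that act in or are substrates of N-terminal degradation, 2 were at least 2-fold higher, none was at least 2-fold lower and 12 lay between, with a median log2 ratio of 0.36. Among all models above 6 reads, 11.5% were at least 2-fold higher and 23.8% at least 2-fold lower. The count of 2 is near the share of higher models, so it is not read as a trait of the route. The exceptions were ZPR2 and MAP2A. ZPR2, a little zipper protein that inhibits class III HD-ZIP factors, had 1400 reads or 38.6 RPKM in mp clv3, against 243 reads or 6.80 RPKM in WT, a ratio of 5.68 (4.66 to 6.91). Its second codon is a cysteine codon in all 3 annotated coding transcripts. MAP2A, a methionine aminopeptidase, the type of enzyme that removes the first methionine, was at 85.4 RPKM in mp clv3, against 32.8 RPKM in WT, a ratio of 2.60 (2.49 to 2.72).

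The other 2 aminopeptidase genes listed, MAP2B and MAP1A, had ratios of 1.35 (1.30 to 1.39) and 1.22 (1.16 to 1.28). The arginyl transferase genes ATE1 and ATE2 were at 10.6 and 8.69 RPKM in mp clv3 and at 11.3 and 6.05 RPKM in WT, with ratios of 0.933 (0.862 to 1.01) and 1.44 (1.30 to 1.59). The ubiquitin ligase gene PRT1, which serves another class of N-termini, had a ratio of 1.09 (1.01 to 1.17). BIG, which encodes a very large protein known from auxin transport, had a ratio of 1.41 (1.37 to 1.44). AT2G44420 and AT2G41760, annotated as amidohydrolases of N-terminal asparagine and glutamine, had ratios of 1.52 (1.38 to 1.66) and 0.767 (0.692 to 0.848). VRN2, a Polycomb protein and a further substrate of the route, was at 20.1 RPKM in mp clv3, against 21.1 RPKM in WT (ratio 0.949, 0.888 to 1.01), and 1 of its 2 annotated coding transcripts has the cysteine codon.

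A list of 10 partner genes of the ERF proteins and of low-oxygen signalling was examined as well. MPK3, a stress-activated kinase, was at 137 RPKM in mp clv3, against 26.7 RPKM in WT, a ratio of 5.12 (4.88 to 5.37). Its relative MPK6 was at 80.3 RPKM in mp clv3, against 39.5 RPKM in WT, a log2 ratio of 1.02 (0.96 to 1.08), whose interval reaches below 2-fold. The other 8 were within 2-fold, while 11.5% of all models above 6 reads were at least 2-fold higher and 23.8% at least 2-fold lower. ACBP1 and ACBP2, acyl-CoA binding proteins that hold RAP2.12 at the plasma membrane, had ratios of 0.966 (0.894 to 1.04) and 1.22 (1.13 to 1.33). The kinase genes TOR and KIN10 had ratios of 1.17 (1.14 to 1.21) and 0.885 (0.847 to 0.925). The Mediator subunit gene MED25 had a ratio of 0.985 (0.931 to 1.04), the chromatin remodeller gene BRM 1.26 (1.23 to 1.29), the ubiquitin ligase gene SINAT2 1.40 (1.32 to 1.49) and AT2G41980 0.692 (0.630 to 0.760). The median log2 ratio over the 10 was 0.26.

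Most of the listed genes known to be induced by low oxygen in many Arabidopsis cell types were at least 2-fold higher in mp clv3. Of 40 such genes outside the 10 members, 35 were at least 2-fold higher, none was at least 2-fold lower and 5 were within 2-fold, against 11.5% of all models at least 2-fold higher. Their median log2 ratio was 3.83, against -0.15 over all models above 6 reads. This list too was drawn up with earlier results of the same comparison known, so both pairs of values are a description and not independent evidence. Of the 35, the 3 with the highest RPKM in either genotype were AT4G27450, SAD6 and ADH1, each by its level in mp clv3. AT4G27450, annotated as an aluminium-induced protein, was at 1463 RPKM in mp clv3, against 52.3 RPKM in WT (ratio 28.0, 27.0 to 29.0). SAD6, a stearoyl-ACP desaturase gene also called FTM1, was at 1062 RPKM in mp clv3, against 5.98 RPKM in WT (ratio 178, 161 to 196). ADH1, the alcohol dehydrogenase of ethanolic fermentation, was at 1019 RPKM in mp clv3, against 13.1 RPKM in WT (ratio 77.9, 73.1 to 83.1). Named after their values were seen, the 5 genes within 2-fold were AT3G10020, AT5G27760, AT1G74940, CYP707A3 and ACHT5, with log2 ratios of 0.80, 0.45, 0.38, 0.01 and 0.00.

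**Figure D4:**
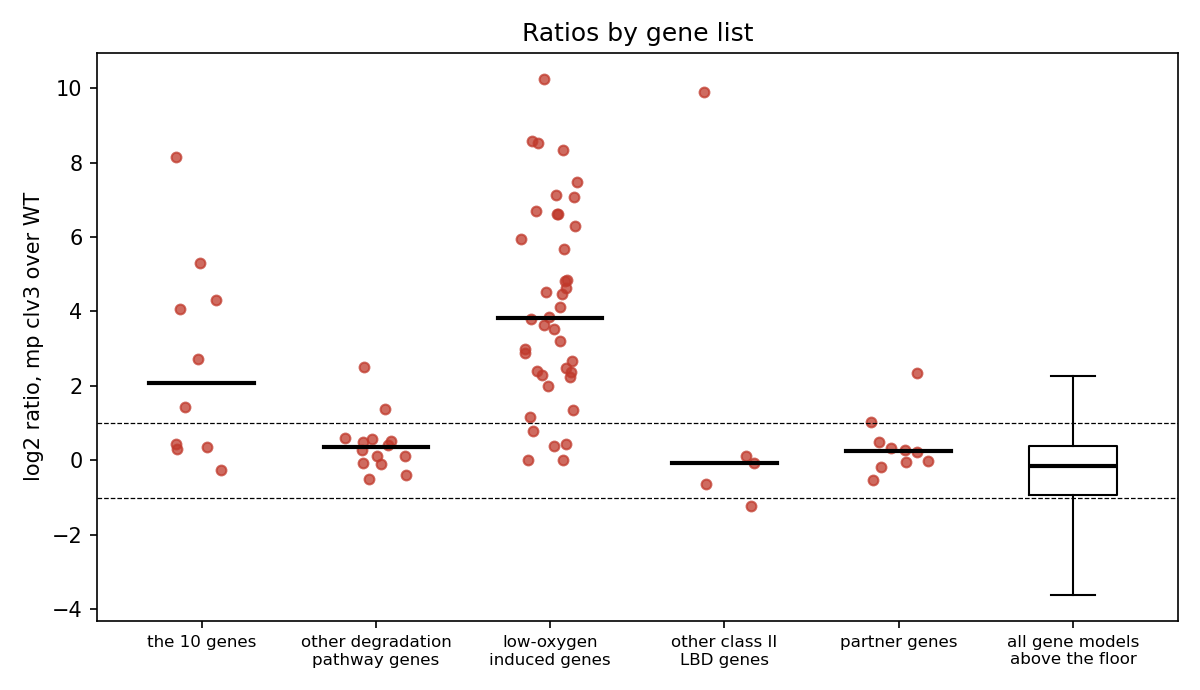
Log2 ratio of mp clv3 over WT for each gene of 5 lists (red points, spread sideways at random; black lines are medians) and for all models with more than 6 reads in either genotype (box: quartiles and median, whiskers: 5th to 95th percentile); dashed lines mark 2-fold. The low-oxygen induced genes have a median of 3.83, the 10 genes 2.08, the other degradation genes 0.36, the partner genes 0.26, the other class II LBD genes -0.07 and all models -0.15.

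Markers of the cell types of the apex also differed between the genotypes. Of 6 meristem genes, 4 were at least 2-fold higher and 1 at least 2-fold lower, with the mutated gene CLV3 among the 4 (summed 320 RPKM in mp clv3, against 142 RPKM in WT), and none was at 0. STM alone was at 217 RPKM in mp clv3, against 68.8 RPKM in WT. The lower gene was KNAT1, at 11.3 RPKM in mp clv3, against 44.8 RPKM in WT. All 6 floral organ genes measured were at least 2-fold lower (2.15 RPKM summed in mp clv3, against 547 RPKM in WT), and so were all 8 anther tapetum genes (13.5 RPKM summed in mp clv3, against 722 RPKM in WT), with MS2 and ATA1 at 0 reads in mp clv3. Of 7 photosynthesis genes, 5 were at least 2-fold lower (646 RPKM summed in mp clv3, against 3566 RPKM in WT). For comparison with these marker counts, 11.5% of all models above 6 reads were at least 2-fold higher and 23.8% at least 2-fold lower. The part of these marker differences in the values of the low-oxygen genes was not tested. MP was at 14.5 RPKM in mp clv3, against 46.1 RPKM in WT, and CLV3 at 15.8 RPKM in mp clv3, against 0.0251 RPKM from 2 reads in WT. Where the 2 lesions lie is not stated in the labels or the table, so these levels do not check the genotypes.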

How the data were processed

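Strand-specific, paired-end mRNA libraries of shoot apices were sequenced, per the labels' protocols. CASAVA 1.7, BWA and TAIR10 are named, with no role, per the submitters' processing notes. Read numbers were deposited as estimated counts, whole numbers with 0 written as 0.5, which was set back to 0. The authors deposited RPKM, a log2 ratio equal to that of the RPKM columns, and an FDR (adjusted p-value) whose test is not stated. Of 27323 rows, 1 with shifted cells was left out. Whether a column sums both replicates is not stated.

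Each ratio divides reads by the genotype's total. Intervals are exact (Clopper-Pearson, 95%) on read pairs, reads halved and rounded up, and cover counting error only. For 0 reads the floor was 3 pairs (6 reads). Models with at most 6 reads in both genotypes gave no ratio. Ratio and interval were tested on simulated data drawn with counting error only. The spread of replicates, ratios past 4-fold and genes with few reads were not covered. edgeR 4.0.16 gave TMM factors, and scipy 1.17.1 the intervals.

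Members and lists were chosen with earlier results of these data known. Named were the 10 members, all genes of the degradation, partner and class II LBD lists, the 3 higher and 3 lower low-oxygen induced genes with the highest RPKM past 2-fold (none was lower), MP and CLV3. Of 107 listed genes, RefSeq (TAIR10.1) holds the listed symbol for 94; the others are named by locus, except members. Sequences and positions come from RefSeq TAIR10.1. A search of promoter sequence is not reported here.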

Additional observations from a re-analysis of the deposited data

How the results depend on the processing

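The counts of members past 2-fold, 6 higher and 0 lower, were the same under TMM and median-of-ratios scaling, pseudocounts of 1 and 5 RPKM, the authors' deposited log2 ratio, an RPKM minimum of 1, an added FDR under 0.05, and a whole counting interval past 2-fold. The deposited log2 ratio, the RPKM minimum and the FDR could not change these counts. For the members that log2 ratio equals the one used here within rounding. Each member had at least 2.38 RPKM in mp clv3, and all 10 had an FDR under 0.05. The HRE2 log2 ratio of 8.15 was 6.32 with a pseudocount of 1 RPKM and 4.42 with 5 RPKM, since its WT level is low. RAP2.12 stayed below 0, at -0.17 under TMM and -0.16 under median of ratios, scalings that raise all ratios by 0.09 and 0.10 on the log2 scale.

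The partner genes at least 2-fold higher were 1 in place of 2 with a pseudocount of 5 RPKM and by the whole counting interval. The other class II LBD genes at least 2-fold lower were 0 in place of 1 with a pseudocount of 5 RPKM. Over all models, with 2662 higher and 5483 lower, a pseudocount of 5 RPKM left 1161 higher and 1464 lower, a pseudocount of 1 RPKM 2942 lower, and an RPKM minimum of 1 3636 lower; these alternatives lessen or drop low models by construction. No paired analysis was possible because the table has 1 column per genotype with no replicate number; leaving out a replicate was not run for the same reason. Depth limits HRE1 (250 reads in mp clv3, against 193 in WT) and HRE2 (27 reads in WT) more than the other members.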
